A study of Mus musculus with 12 samples.

Results

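The miRNAs described here are miR-219 and miR-338, a pair of small RNAs best known from oligodendrocytes, the cells that wrap axons in myelin. Every row of the deposited miRNA table whose name is mmu-miR-219 or mmu-miR-338, in any copy or arm, was taken, which gave 5 rows of 495 named miRNA rows. They are the arms miR-338-3p and miR-338-5p, and the rows miR-219-3p, miR-219-5p and miR-219-3p*.

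The libraries were made from small RNA of the CA1 area, dissected from the hippocampus of C57BL/6J mice aged 3 to 5 months. Kat2a is a histone acetyltransferase. The Kat2a cKO group (n = 6 libraries) carried Kat2a fl/fl with CamKIIα-cre+, and the Control group (n = 6 libraries) carried Kat2a fl/fl, so both groups share the floxed allele. The CamKIIα promoter drives Cre in excitatory neurons of the forebrain and not in oligodendrocytes. The deletion is thus directed to a different cell type from the one these miRNAs are best known from. Which cells of this CA1 tissue held them was not determined. The labels do not say that each library is a separate animal, so p-values measure the spread between these libraries, which may be technical.

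A miRNA is cut from a hairpin precursor, and one of its arms, 5p or 3p, is usually loaded into an Argonaute protein. The seed, bases 2 to 8 of the mature RNA, pairs with target messenger RNAs and lowers their translation or stability. In mouse, miR-219 and miR-338 accumulate as oligodendrocyte precursors leave the cell cycle, and they repress transcripts that hold cells in the precursor state, among them Pdgfra, Sox6 and Hes5. Mir338 lies in an intron of Aatk, a kinase gene expressed in the nervous system, and miR-219 is made from the separate hairpins Mir219a-1 and Mir219a-2.

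The mature sequences are shown because the names do not say which RNAs are close enough to share reads; each is RefSeq sequence, 5′ to 3′, with the seed in capitals.
miR-338-3p: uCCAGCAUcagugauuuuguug
miR-338-5p: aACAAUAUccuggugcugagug
miR-219a-5p: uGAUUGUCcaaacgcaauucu
miR-219a-1-3p: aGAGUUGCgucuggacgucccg
miR-3065-5p: uCAACAAAaucacugaugcugg
On GRCm38.p6 these lie at chr11:120014781-120014802 on the minus strand for miR-338-3p, chr11:120014816-120014837 on the minus strand for miR-338-5p, and chr11:120014780-120014801 on the plus strand for miR-3065-5p. The miR-219a-5p sequence occurs at chr2:29845689-29845709 and at chr17:34025052-34025072, and miR-219a-1-3p at chr17:34025010-34025031, all on the minus strand. None of these 5 seeds was shared with another of the 1679 mature names in the RefSeq table, so the arms of each hairpin carry different seeds. The row miR-219-5p bears the older, unlettered name of miR-219a-5p.

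The hairpins are shown because the 5p arm of miR-219 is the same in both of its precursors and the 3p side is not; capitals mark the mature arms listed above.
Mir338: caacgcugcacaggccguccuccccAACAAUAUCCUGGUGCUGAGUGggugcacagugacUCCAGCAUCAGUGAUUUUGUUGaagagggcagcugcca
Mir219a-1: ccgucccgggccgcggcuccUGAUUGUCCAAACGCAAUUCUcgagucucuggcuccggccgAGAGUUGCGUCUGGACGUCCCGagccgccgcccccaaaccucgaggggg
Mir219a-2: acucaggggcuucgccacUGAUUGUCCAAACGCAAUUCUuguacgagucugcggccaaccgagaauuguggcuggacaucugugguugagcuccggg
In GRCm38.p6 the hairpins span chr11:120014765-120014862, chr17:34024983-34025092 and chr2:29845631-29845727, all on the minus strand. By the GENCODE M21 annotation, Mir338 is intronic in Aatk on the same strand and faces Mir3065 on the opposite strand. Mir219a-1 overlaps an exon of the lincRNA Gm26940 on the same strand and Mir219c on the other, and its nearest protein-coding gene, Ring1, lies 303 bases away. Mir219a-2 overlaps Mir219b on the opposite strand, and its nearest protein-coding gene, Urm1, lies 629 bases away on the other strand.

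The stretch of Mir219a-2 that best matches miR-219a-1-3p is shown because it decides whether a read of the 3p arm can come from either copy; capitals mark the bases that differ.
Mir219a-2 at chr2:29845645-29845666, minus strand: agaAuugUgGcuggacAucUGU
Of its 22 bases, 15 equal those of miR-219a-1-3p and 7 differ, 2 of them within the seed. The 5p reads therefore cannot be assigned to a copy by sequence, whereas 3p reads can be told apart between these copies. Mir219c and Mir219b overlap the hairpins on the opposite strand, and mixing of reads with them was not examined. The files do not pair the names miR-219-3p and miR-219-3p* with a hairpin, so no copy is given for these rows. The miR-3065-5p sequence and miR-338-3p are complementary over 21 bases, so without strand their reads cannot be told apart. Whether strand was used in counting is not given in the sources used here, and the miR-3065 row names no arm.

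The miRNA table held 2449121 to 10116062 reads per library, and the table of all RNAs held 1119938 to 4464600. Kat2a itself had only 13 reads over the Kat2a cKO libraries and 23 over the Control libraries, with 0.952 ± 0.967 CPM (counts per 1000000, scaled by trimmed mean of M values) in Kat2a cKO and 2.23 ± 2.44 CPM in Control (SD, n = 6 each, p = 0.279 in an exact two-sided permutation test), so this depth gives no check of the genotype labels. The first principal component of all miRNAs, with 46.6% of the variance, placed every library with replicate number 4 to 6 at -6.78 to -4.01. Kat2a cKO libraries 1 and 3 and Control libraries 1 and 2 lay at 8.30 to 9.02, with Kat2a cKO library 2 at -0.41 and Control library 3 at -0.98. Both genotypes are present in each set of numbers, and the labels do not say what the sets are, so values within each set are given beside the results.

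In CA1 the members together made up 0.306 ± 0.0625% of miRNA reads in Kat2a cKO and 0.354 ± 0.0865% in Control (SD, n = 6 each). miR-338-3p supplied most of this. It ranked 51 among the 494 tested miRNAs by mean CPM, with 203333 reads over the 12 libraries, followed by miR-219-3p at rank 120 with 30973 reads and miR-338-5p at rank 189 with 9886 reads. The scarcest were miR-219-5p at rank 306 with 1889 reads and miR-219-3p* at rank 409 with 352 reads. Mature miRNAs are of nearly the same length, so no length correction was made. Other differences between sequences in how well they are captured and read were not corrected or tested. Ranks and ratios between miRNAs are thus those of reads, not of molecules.

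The order of the 5 levels was the same in each library. The mean of miR-338-3p was 6.16-fold that of miR-219-3p, with 3.54 to 9.66-fold in single libraries. miR-219-3p was 3.11-fold above miR-338-5p (2.48 to 4.23 per library), and miR-338-5p was 5.42-fold above miR-219-5p (3.11 to 17.6 per library). The last step, miR-219-5p over miR-219-3p*, was 5.15-fold in the means but as little as 1.22-fold in one library, and the ranges of these last neighbours overlapped across libraries.

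**Figure D1:**
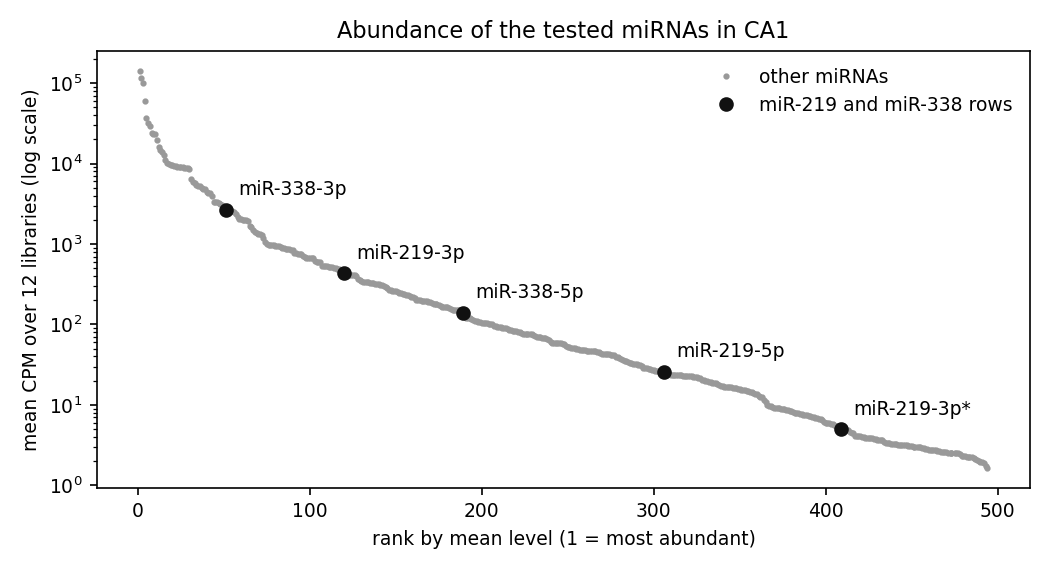
Mean CPM over 12 libraries (log axis) of each of the 494 tested miRNAs against its rank, with the miR-219 and miR-338 rows marked in black. The members run from miR-338-3p at rank 51 to miR-219-3p* at rank 409.

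No difference between Kat2a cKO and Control CA1 passed the test for any of the 5 members. Both arms of miR-338, miR-219-3p and miR-219-5p had lower fitted values in Kat2a cKO, and miR-219-3p* had a higher one, each with an interval that includes no change. By edgeR's quasi-likelihood test with Benjamini-Hochberg adjustment over 494 tested miRNAs, the adjusted p was 0.997 for each. Neither the unadjusted p, 0 of 5 under 0.05, nor DESeq2, 0 of 5 called, gave a call. Among all 494 tested miRNAs, 21 had an unadjusted edgeR p under 0.05 and DESeq2 called 2. Over all tested miRNAs edgeR called 0.202%, namely miR-203, which was higher in Kat2a cKO at 105 ± 11.02 CPM, against 63.3 ± 8.29 CPM in Control (SD, n = 6 each; log2 fold change 0.73 ± 0.13 SE, adjusted p = 0.0386). With any one library left out, miR-203 was no longer called. It is given here only as the background. In whole CA1 tissue, fewer cells of a type and less RNA per cell cannot be told apart.

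miR-338-3p, the arm of the Mir338 hairpin best known in oligodendrocyte differentiation, had 1980.1, 2683, 1878, 3418, 2385 and 2377 CPM in Kat2a cKO libraries 1 to 6. Control libraries 1 to 6 had 2122, 1986, 2783, 3474, 3756 and 3232 CPM. The groups overlapped, although 5 of 6 Kat2a cKO libraries were below the Control mean and Kat2a cKO library 4 stood with the Control libraries of the same set of numbers. The means were 2454 ± 556 CPM in Kat2a cKO and 2892 ± 725 CPM in Control (SD, n = 6 each). The log2 fold change was -0.24 ± 0.19 (SE; 95% interval -0.65 to 0.17).

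The level of miR-338-3p also went with the sets of replicate numbers, with lower means among numbers 1 to 3 in both genotypes, a difference that was not tested. Among numbers 1 to 3 it averaged 2180.2 ± 438 CPM in Kat2a cKO and 2297 ± 426 CPM in Control (SD, n = 3 each). Among numbers 4 to 6 the means were 2727 ± 599 CPM in Kat2a cKO and 3488 ± 262 CPM in Control (SD, n = 3 each). The genotypes were nearer to each other in the first set than in the second, and a difference between the sets in the genotype effect was not tested.

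miR-338-5p, from the other arm of the same hairpin, had 150.3, 112, 163, 162, 106 and 118 CPM in Kat2a cKO libraries 1 to 6. The Control libraries 1 to 6 had 177, 137, 157, 146, 141 and 104 CPM. Its groups covered nearly the same range, and 3 of 6 Kat2a cKO libraries were below the Control mean. It averaged 135 ± 26.0 CPM in Kat2a cKO and 144 ± 24.2 CPM in Control (SD, n = 6 each), and the log2 fold change was -0.09 ± 0.16 (SE; 95% interval -0.44 to 0.26).

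miR-219-3p, the most abundant miR-219 row here, had 424, 278, 515, 435, 376 and 333 CPM in Kat2a cKO libraries 1 to 6. In Control libraries 1 to 6 it had 599.8, 402, 524, 450.4, 432 and 440 CPM. Of the Kat2a cKO libraries 5 of 6 were below the Control mean, and 3 of them were below every Control library. The means were 393 ± 83.4 CPM in Kat2a cKO and 475 ± 73.4 CPM in Control (SD, n = 6 each), with a log2 fold change of -0.27 ± 0.16 (SE; 95% interval -0.62 to 0.07).

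The sets of numbers ran the other way for this row than for miR-338-3p. Among numbers 1 to 3, miR-219-3p averaged 406 ± 120 CPM in Kat2a cKO and 509 ± 99.7 CPM in Control, and among numbers 4 to 6 it averaged 381 ± 51.2 CPM in Kat2a cKO and 441 ± 9.42 CPM in Control (SD, n = 3 each). Its Control mean was thus higher in the set where the Control mean of miR-338-3p was lower. Kat2a cKO was below Control in the mean within both sets.

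miR-219-5p, the arm with the seed usually cited for repression of Pdgfra and Sox6, was scarce. It had 34.1, 6.50, 9.25, 34.6, 21.9 and 19.0 CPM in Kat2a cKO libraries 1 to 6. It had 20.4, 25.2, 21.3, 47.1, 36.1 and 33.3 CPM in Control libraries 1 to 6. Kat2a cKO libraries 2 and 3, with 45 and 50 reads, were the lowest of all, while libraries 1, 4 and 5 lay inside the Control range. The means were 20.9 ± 11.9 CPM in Kat2a cKO and 30.6 ± 10.3 CPM in Control (SD, n = 6 each). Its log2 fold change of -0.58 ± 0.37 (SE; 95% interval -1.36 to 0.21) had the widest interval of the members.

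miR-219-3p* had 13 to 54 reads per library and was the scarcest of the 5 rows. It had 3.21, 5.25 and 7.77 CPM as the lowest, median and highest Kat2a cKO values. In Control these were 3.27, 4.10 and 7.68 CPM, so the ranges overlapped almost fully. The means were 5.32 ± 1.45 CPM in Kat2a cKO and 4.68 ± 1.69 CPM in Control (SD, n = 6 each), and the log2 fold change was 0.19 ± 0.24 (SE; 95% interval -0.32 to 0.70).

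**Figure D2:**
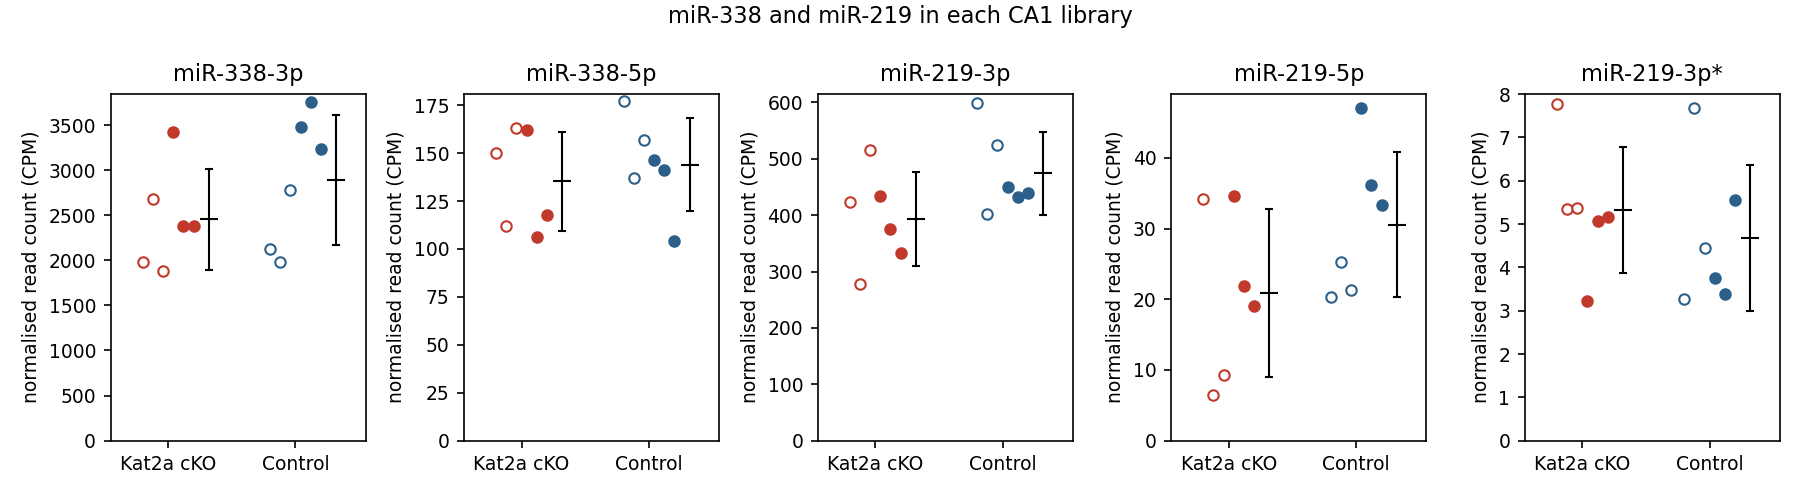
CPM of each of the 5 rows in every library, with Kat2a cKO left of Control, open circles for replicate numbers 1 to 3, filled circles for 4 to 6, and bars for the mean ± SD (n = 6 each). The groups overlap in every panel, for example 1878 to 3418 CPM in Kat2a cKO and 1986 to 3756 CPM in Control for miR-338-3p.

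Of the members, 4 of 5 had a fitted value below 0, and over all tested miRNAs 50.8% did. The members' median log2 fold change was -0.24, beside -0.00 over all tested miRNAs. No member had groups that did not overlap, against 0.405% of tested miRNAs. Since rows from one hairpin share their source, the 5 rows are not 5 separate observations.

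**Figure D3:**
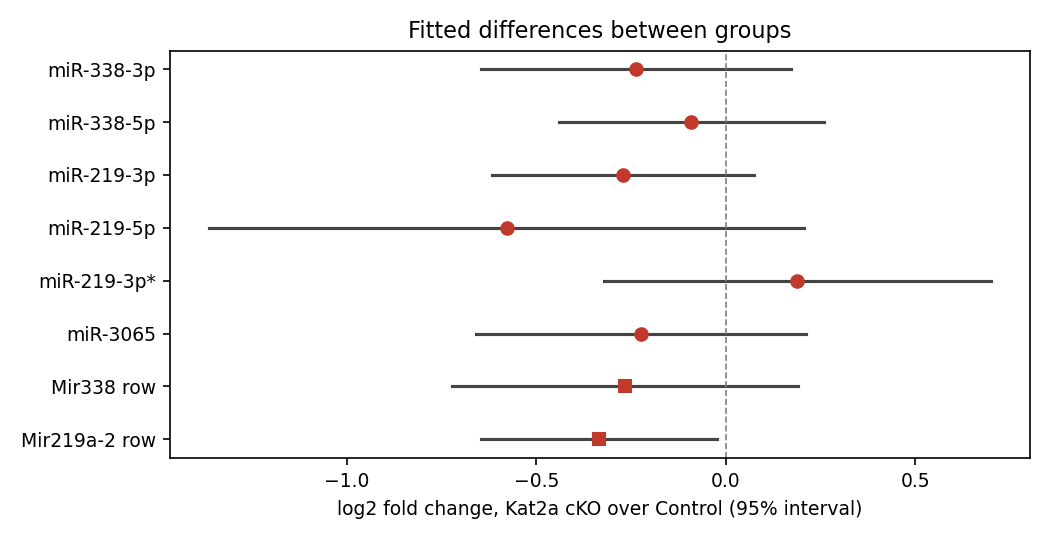
Log2 fold change, Kat2a cKO over Control, of the members, miR-3065 and the precursor rows, with 95% intervals. The interval of every mature miRNA includes 0, from -0.58 for miR-219-5p to 0.19 for miR-219-3p*, and the Mir219a-2 row has the interval -0.65 to -0.02.

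The 3p row outnumbered the 5p row for both miR-338 and miR-219. Pooled over libraries, reads of miR-338-3p were 20.6-fold those of miR-338-5p, the other arm of its hairpin. Reads in the row miR-219-3p were 16.4-fold those in the row miR-219-5p, which is a ratio between rows and not between the arms of one hairpin, since both precursors make the 5p sequence. For miR-338 the ratio was 11.5 to 31.1-fold in single libraries, and for miR-219 it was 9.57 to 55.7-fold. The highest miR-219 ratios, 42.8 and 55.7-fold, were in Kat2a cKO libraries 2 and 3, where miR-219-5p was lowest.

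Neither 3p to 5p ratio passed the test between genotypes. The log2 ratio of the miR-219 rows was 4.45 ± 0.92 in Kat2a cKO and 4.00 ± 0.62 in Control, a difference of 0.44 (SD, n = 6 each; p = 0.340 in an exact two-sided permutation test, adjusted over 4 ratios 0.846). That difference was 0.25 without Kat2a cKO library 2, 0.18 without Kat2a cKO library 3 and 0.29 without Control library 4. The log2 ratio of the miR-338 arms was 4.17 ± 0.44 in Kat2a cKO and 4.31 ± 0.53 in Control, a difference of -0.13 (SD, n = 6 each; exact permutation p = 0.643, adjusted 0.846). The miR-338 ratio ran from 3.53 to 4.58 among numbers 1 to 3 and from 4.34 to 4.96 among numbers 4 to 6. The direction of its genotype difference turned within numbers 1 to 3, at 0.082.

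**Figure D4:**
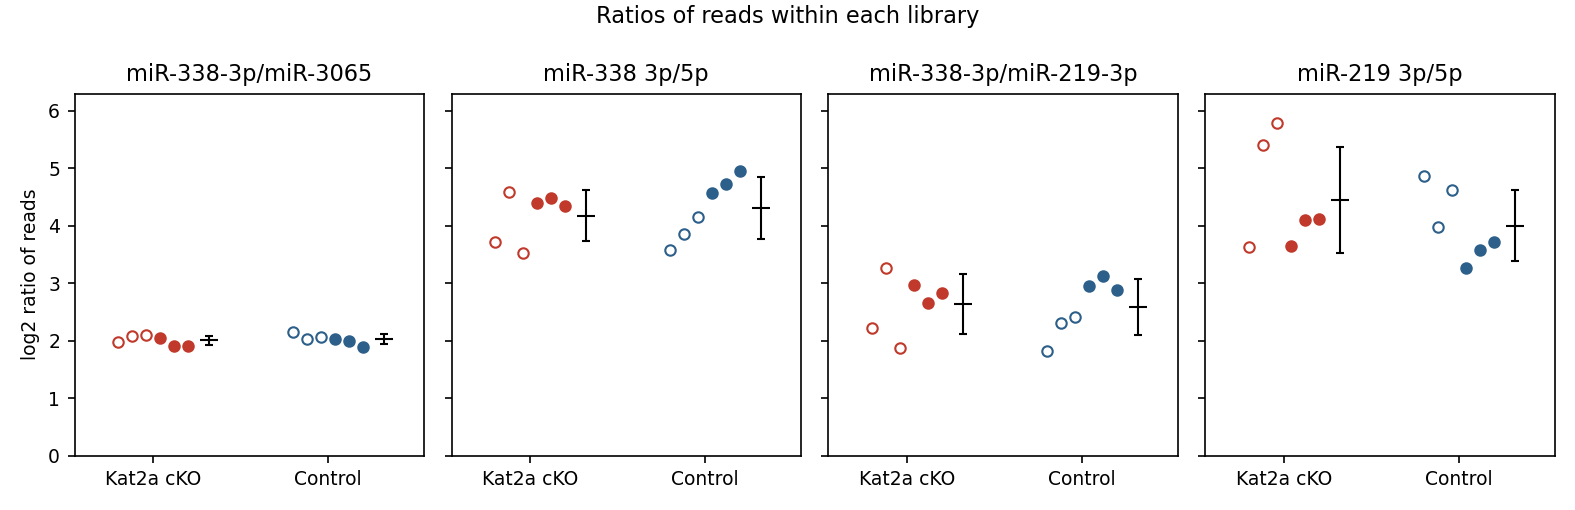
Log2 ratios of reads per library for miR-338-3p over miR-3065, the miR-338 arms, miR-338-3p over miR-219-3p and the miR-219 3p and 5p rows, with the mean ± SD as bars, Kat2a cKO left of Control, open circles for replicate numbers 1 to 3 and filled circles for 4 to 6. The miR-338-3p to miR-3065 ratio spans only 3.73 to 4.46-fold, whereas the miR-219 3p to 5p ratio spans 9.57 to 55.7-fold.

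The profile most like miR-338-3p was that of miR-3065, the miRNA from the opposite strand of the same hairpin locus. Likeness was measured as the SD of the log2 ratio over the 12 libraries, among 203 miRNAs with a mean of at least 100 CPM. That SD was 0.08 for miR-3065, against 0.35 for the log2 level of miR-338-3p itself. Next came miR-376b* at 0.15 and miR-3071* at 0.16. miR-3065 had 503, 635, 438, 824, 632 and 631 CPM in Kat2a cKO libraries 1 to 6, and 476, 485, 664, 846, 940.3 and 867 CPM in Control libraries 1 to 6, so it was high and low in the same libraries as miR-338-3p. The miR-3065-5p and miR-338-3p sequences are complementary over 21 bases, and use of strand in counting is not given. The part of shared reads in this likeness was not tested.

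Reads of miR-338-3p were 4.00-fold those of miR-3065 when pooled. The log2 ratio was 2.01 ± 0.08 in Kat2a cKO and 2.03 ± 0.08 in Control, a difference of -0.03 (SD, n = 6 each; exact permutation p = 0.593, adjusted 0.846). miR-3065 also did not pass the test, with a log2 fold change of -0.22 ± 0.20 (SE; 95% interval -0.66 to 0.21).

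The other members moved less closely with any miRNA. For miR-219-3p the nearest were miR-541 at an SD of 0.13, miR-673-3p at 0.20 and miR-181b at 0.21. For miR-338-5p they were miR-351 at 0.18, miR-872* at 0.18 and miR-541 at 0.20. The nearest to miR-219-5p were miR-29b at 0.49, miR-142-5p at 0.53 and miR-153 at 0.55, beside an SD of 0.82 for its own log2 level. For the low-count miR-219-3p* they were miR-676* at 0.32, miR-673-5p at 0.33 and miR-361* at 0.34. The log2 level itself had an SD of 0.30 for miR-219-3p, 0.26 for miR-338-5p and 0.41 for miR-219-3p*.

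The members did not share one profile among themselves. The SD of the log2 ratio was 0.20 between miR-219-3p and miR-338-5p, 0.47 between the arms of miR-338, and 0.77 between miR-219-3p and miR-219-5p. The log2 ratio of miR-338-3p to miR-219-3p was 2.64 ± 0.51 in Kat2a cKO and 2.58 ± 0.49 in Control, a difference of 0.06 (SD, n = 6 each; exact permutation p = 0.846, adjusted 0.846). Its sign turned without Kat2a cKO library 2 (-0.067), without Kat2a cKO library 4 (-0.0078), without Control library 1 (-0.092) and within numbers 4 to 6 (-0.16).

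The table of all RNAs counts reads on the hairpin transcripts, and can hold the same reads as the mature rows, so it is no independent measure. Its columns show the genotype but not the replicate number, so libraries are called a to f within each genotype. The Mir338 row had 736, 1268, 904, 1416, 1016 and 1055 CPM in the Kat2a cKO libraries a to f. The Control libraries a to f had 1022, 869.5, 1188, 1516, 1657 and 1437 CPM. As with the mature 3p arm, the groups overlapped and the test was not passed, with a log2 fold change of -0.27 ± 0.21 (SE; 95% interval -0.72 to 0.19; edgeR adjusted p = 0.9999).

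The Mir219a-2 row had 221, 183, 204, 220.4, 169.9 and 175 CPM in the Kat2a cKO libraries a to f. In the Control libraries a to f it had 264, 213, 218, 265, 241 and 277 CPM. All 6 Kat2a cKO libraries were below the Control mean, and the ranges overlapped at their edges. The means were 195 ± 22.5 CPM in Kat2a cKO and 246 ± 26.4 CPM in Control (SD, n = 6 each). Its log2 fold change was -0.33 ± 0.14 (SE; 95% interval -0.65 to -0.02), with an unadjusted edgeR p of 0.0379 and an adjusted p of 0.9999 over 1846 tested rows, so it was not called. In that table edgeR called 0% of rows, 81 had an unadjusted p under 0.05, and DESeq2 called 10, with an adjusted p of 0.155 for Mir219a-2. With the rows of each gene summed, the interval for Mir219a-2 was -0.62 to 0.02.

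Mir219a-1 was far lower, with 176 reads in all, and its row was under the filter on low counts. It had 2.77, 3.83, 3.70, 5.79, 4.14 and 5.15 CPM in the Kat2a cKO libraries a to f, and 4.83, 0.877, 7.82, 7.25, 20.6 and 3.98 CPM in the Control libraries a to f. Control library e, with 48 reads, stood above the rest. The means were 4.23 ± 1.08 CPM in Kat2a cKO and 7.57 ± 6.87 CPM in Control (SD, n = 6 each), and the Control mean was 4.95 ± 2.79 CPM without library e (n = 5). It passed the filter in the fit with the rows of each gene summed, where its log2 fold change was -0.82 ± 0.49 (SE; 95% interval -1.88 to 0.25; edgeR adjusted p = 0.954).

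Between hairpins of similar length, reads on Mir219a-2 were 35.1-fold those on Mir219a-1. The share of Mir219a reads on Mir219a-1 was 2.14 ± 0.58% in Kat2a cKO and 2.94 ± 2.64% in Control (SD, n = 6 each), or 1.95 ± 1.17% in Control without library e. Since the 5p arm is the same in both hairpins, how such reads were counted between the rows is uncertain.

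**Figure D5:**
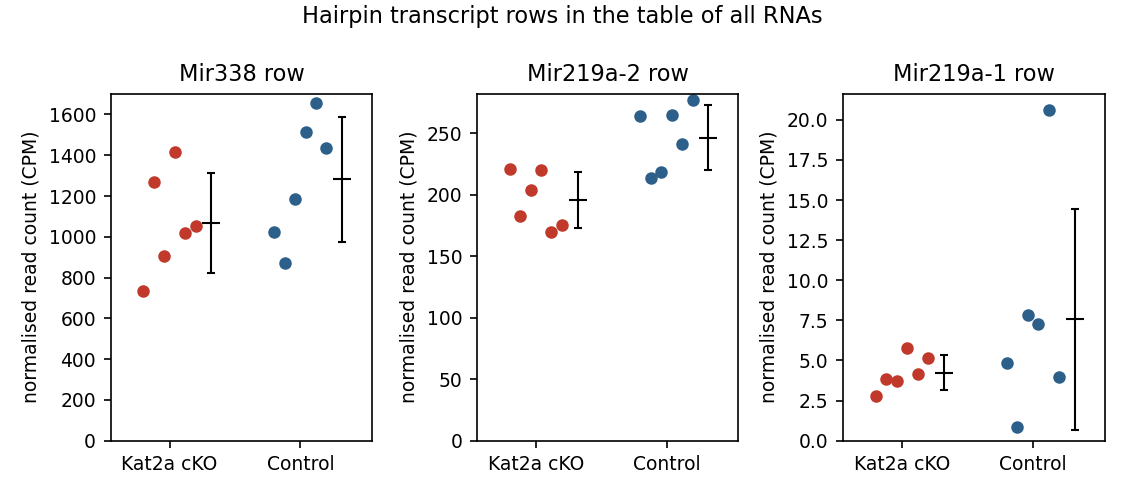
CPM of the Mir338, Mir219a-2 and Mir219a-1 rows in each library of the table of all RNAs, with Kat2a cKO left of Control and bars for the mean ± SD (n = 6 each). The Mir219a-2 row runs from 170 to 221 CPM in Kat2a cKO and from 213 to 277 CPM in Control, and 1 Control library stands high for Mir219a-1 (20.6 CPM).

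Aatk, the host gene of Mir338, had 73 reads over the Kat2a cKO libraries and 36 over the Control libraries, and was under the filter. Of the Kat2a cKO reads 33 were in library a. These reads are fragments in libraries cut to small RNA size, so they give no measure of the full messenger RNA.

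No other miRNA linked to oligodendrocyte differentiation passed the test. Of 27 rows tested, some of them arms or copies of one miRNA, 0 were called by edgeR or DESeq2. An unadjusted edgeR p under 0.05 was reached by 0 of the 27, with 12 fitted lower and 15 higher. Among all 494 tested miRNAs, 21 had an unadjusted edgeR p under 0.05. The median log2 fold change of the 27 listed rows was 0.01, within -0.56 to 0.34, beside -0.00 over all tested miRNAs. The 4 most abundant were miR-9, miR-138, miR-92a and miR-9*, of which miR-9, miR-138 and miR-9* are on the neuronal list as well. miR-9 averaged 31546 ± 5161 CPM in Kat2a cKO and 32298 ± 7622 CPM in Control (log2 fold change -0.03 ± 0.17 SE), and miR-138 averaged 4184 ± 1218 CPM in Kat2a cKO and 4343 ± 1217 CPM in Control (-0.05 ± 0.23). miR-92a, a member of the miR-17-92 cluster, averaged 3348 ± 1596 CPM in Kat2a cKO and 3002 ± 1053 CPM in Control (0.16 ± 0.29).

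Each list of marker miRNAs of the other cells in CA1 had tested rows. Some rows are arms or copies of one miRNA, so the rows are not separate observations. Of 15 rows of neuronal miRNAs 0 were called, with 13 fitted lower, beside 50.8% of all tested miRNAs, and a median of -0.05. The summed level of the 15 rows was 58868 to 68301 CPM in Kat2a cKO and 57076 to 79247 CPM in Control. It was led by miR-9 and by miR-128, which had 21496 ± 3902 CPM in Kat2a cKO and 25286 ± 2190.1 CPM in Control. For miR-124 the only row was miR-124*, with 50.2 ± 4.28 CPM in Kat2a cKO and 50.2 ± 3.83 CPM in Control. The sum thus leaves out the other arm of miR-124. Of 5 rows of microglial miRNAs 0 were called, with 3 fitted lower, 2 higher and a median of -0.06. The most abundant of these were miR-146a at -0.06 ± 0.15 and miR-142-5p at -0.07 ± 0.30. Of 6 rows of vascular miRNAs 0 were called, with 2 fitted lower, 4 higher and a median of 0.12. The most abundant were miR-126-5p, with a log2 fold change of 0.11 ± 0.18, and miR-143, at 0.17 ± 0.19. The other arm of miR-126, miR-126-3p, was at -0.005 ± 0.13. All 4 rows of red blood cell miRNAs had fitted values above 0, with a median of 0.30 and 0 called. Of these, miR-451, at 0.44 ± 0.17, had an unadjusted edgeR p under 0.05, as 1 of 21 such miRNAs among the 494 tested. miR-486 was at 0.16 ± 0.38. The part of any of these in the members' levels was not tested.

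The messenger RNAs of oligodendrocytes were seen only as fragments. All 16 listed genes had reads, with 39 to 129 reads per library together, which summed to 39.7 ± 9.68 CPM (29.7 to 56.9) in Kat2a cKO and 32.3 ± 7.73 CPM (21.7 to 42.3) in Control. Mbp, encoding myelin basic protein, had 18.3 ± 6.95 CPM in Kat2a cKO and 14.8 ± 5.78 CPM in Control (SD, n = 6 each). None of the 28 transcript rows of these genes passed the filter on low counts. With the rows of each gene summed, Mbp passed it, and its log2 fold change was 0.34 ± 0.35 (SE; 95% interval -0.41 to 1.10; edgeR adjusted p = 0.999). The other genes, 10 reads or more each, were Mobp, Mog, Mag, Cnp, Mal, Cldn11, Ermn, Opalin, Ugt8a, Myrf, Olig1, Olig2, Sox10, Nkx2-2 and Nkx6-2. Of the 16 means 11 were higher and 5 lower in Kat2a cKO, and no gene had groups that did not overlap. The shares over all genes were not taken, so these counts are not read as particular to oligodendrocyte genes. Means were also higher in Kat2a cKO for 3 of 4 oligodendrocyte precursor genes and 4 of 5 pyramidal neuron genes, with 1 lower in each list. Reads of myelin transcripts were present in both genotypes. Of 4 genes of oligodendrocyte precursors, Pdgfra, Cspg4, Vcan and Ptprz1, 0 rows passed the filter, and they summed to 16.4 ± 9.18 CPM in Kat2a cKO and 19.1 ± 10.97 CPM in Control (SD, n = 6 each). The 5 genes of pyramidal neurons, the cells in which Cre is driven, summed to 25.6 ± 4.73 CPM in Kat2a cKO and 22.4 ± 3.65 CPM in Control, with 0 of 3 tested rows called.

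No reported target of miR-219 and miR-338 passed the test, and most had too few reads to be tested. Pdgfra, the growth factor receptor of oligodendrocyte precursors, had 2.19 ± 1.31 CPM in Kat2a cKO and 1.95 ± 1.22 CPM in Control. Sox6, a transcription factor that holds precursors undifferentiated, had 2.45 ± 1.98 CPM in Kat2a cKO and 4.13 ± 2.37 CPM in Control. Hes5, a Notch-pathway repressor, had 1.25 ± 0.796 CPM in Kat2a cKO and 0.601 ± 0.466 CPM in Control (SD, n = 6 each). Foxj3, Zbtb18, Elovl7, Fgfr2, Lingo1, Etv5, Camk2g and Neurod1 were also below the test's filter on each row, and Cdk5r1 alone passed it, with a log2 fold change of 0.21 ± 0.29 (SE). With the rows of each gene summed, Fgfr2 and Zbtb18 could be tested too, and their log2 fold changes were -0.60 ± 0.86 and 0.27 ± 0.33 (SE). Of the 12 means 8 were higher and 4 lower in Kat2a cKO, and the share of all genes with higher means was not taken. Lingo1, with a lower mean, had 2.65 ± 1.52 CPM in Kat2a cKO and 6.25 ± 9.84 CPM in Control (SD, n = 6 each). Its highest Control library held 30 of the 56 Control reads, and its medians were 2.48 CPM in Kat2a cKO and 2.36 CPM in Control. In these lists 0 rows were called, beside 0% of all rows in that table.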

How the data were processed

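Small RNA of mouse CA1 was sequenced in 6 Kat2a cKO and 6 Control libraries. TRI Reagent and DNase were used to prepare RNA, and an Illumina small RNA kit with a gel cut to prepare libraries, per the labels' protocols; per the submitters' processing notes, CASAVA was used. The aligner, annotation release, genome build and use of strand are not given in the sources used here. The deposited tables hold raw read counts with no normalization, as their headers and whole numbers show: miRNAs, miscellaneous RNAs (1779081 to 8586979 reads per library) and all RNAs. One row with no name (0.00015% of miRNA reads) was left out. Every named miRNA row has a Control mean of 10 or more reads, while the lowest Kat2a cKO mean is 9, so rows may have been chosen on Control. Of 35230 rows of all RNAs, 26081 were matched by accession to symbols in a RefSeq table.

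Counts were scaled by trimmed mean of M values, filtered with filterByExpr and tested with edgeR 4.0.16 (quasi-likelihood, Benjamini-Hochberg adjustment over the whole table, threshold 0.05) in R 4.3.3, with limma 3.58.1 and DESeq2 1.42.0 as alternatives. The fit was also run on simulated counts with known fold changes, drawn without the sets of replicate numbers, and no result here rests on that run. Ratios used counts plus 0.5 reads and an exact permutation over the 12 libraries. The alternatives were other scalings, filters and tools, the replicate block, the sets of replicate numbers, and each library left out. Members, lists and the text's choice of genes were fixed with earlier results of these data known. The rule named every member row, the 3 nearest profiles of each, the 4 most abundant miRNAs linked to oligodendrocytes, the 2 most abundant of each other cell type, miRNAs past the threshold, the precursor and host rows, and oligodendrocyte messenger RNAs and targets with 10 or more reads; 1 gene is not reported here.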

Additional observations from a re-analysis of the deposited data

Results flagged for a closer look

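Of 66 groups of 6 libraries examined, 6 had a library whose gap to its neighbour was large against the group's range by a test at the level of 1 in 20; chance gives about 1 in 20 groups. Aatk had 30.5 CPM in Kat2a cKO library a, next to 4.63 CPM (gap 0.881 of the range). Mir219a-1 had 20.6 CPM in Control library e, next to 7.82 CPM (gap 0.649). Sox6 had 6.46 CPM in Kat2a cKO library a, next to 1.91 CPM (gap 0.895), and 8.77 CPM in Control library b, next to 3.98 CPM (gap 0.724). Mbp had 31.5 CPM in Kat2a cKO library c, next to 19.0 CPM (gap 0.628). miR-9* had 492 CPM in Kat2a cKO library 3, next to 899.6 CPM (gap 0.638). None of the miR-219 and miR-338 rows of the miRNA table had such a library.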

How the results depend on the processing

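Each member's log2 fold change kept its sign and stayed short of the threshold in 23 of 23 alternatives, within -0.35 to -0.07 for miR-338-3p, -0.37 to -0.19 for miR-219-3p, -0.17 to -0.02 for miR-338-5p, -0.80 to -0.39 for miR-219-5p and 0.09 to 0.34 for miR-219-3p*. The lowest adjusted p over these edgeR, limma and DESeq2 fits was 0.289. The count of miRNAs called, 1 in edgeR, was 2 in DESeq2. It was 0 with library totals only, with library sizes summed over the miRNA table and the misc RNA table, with the replicate block, with numbers 1 to 3 alone and with numbers 4 to 6 alone, and 0 to 0 with each library left out. The log2 ratio of miR-338-3p to miR-219-3p turned to -0.16 with numbers 4 to 6 alone and ran from -0.092 to 0.21 with each library left out. The miR-338 arm ratio turned to 0.082 with numbers 1 to 3 alone and ran from -0.28 to -0.00 with each library left out. The causes were not tested. Libraries with the same number deviated from their group means with correlations of 0.41, -0.15, 0.13, 0.67, 0.24 and 0.27, so the numbers are not taken to pair libraries, and the replicate block changed no member's call. No row was called among the other oligodendrocyte-linked miRNAs in 6 alternatives, or among the host, oligodendrocyte and target transcripts in the 4 run there; for the lists of other cell types only the DESeq2 count, 0 called, was taken. The miR-219 3p to 5p ratio ran from 0.18 to 0.62 with each library left out. Low counts limit miR-219-5p, miR-219-3p*, Mir219a-1 and the messenger RNAs.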
